A study of Mus musculus with 16 samples.

Results

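The transcripts of the G1 phase machinery were followed in mouse embryonic stem (ES) cells with and without Taf4a as they were turned towards neurons. The set holds 9 genes, chosen by name: the D-type cyclins Ccnd1, Ccnd2 and Ccnd3, the E-type cyclins Ccne1 and Ccne2, the kinases Cdk2, Cdk4 and Cdk6, and Cdkn1b, which encodes the inhibitor p27. They are 9 of the 27807 genes in the deposited table, each with 1 row. All 9 passed the filter for testing, a mean normalised read count of 10 or more, which 16124 genes passed.

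Polyadenylated RNA was sequenced in 16 libraries, with 2 libraries in each of 8 groups. WT libraries carry the label Taf4+/+ and KO libraries the label Taf4-/-. The product of Taf4a is part of TFIID, the complex that recognises core promoters for RNA polymerase II. The null allele lacks a pair of internal exons in every cell. The groups were ES cells, grown with LIF on inactivated mouse embryonic fibroblast feeders, and embryoid bodies at 3 stages, before retinoic acid (EB4), a day into the treatment (EB5) and later in it, at a stage labelled neural precursor cells (EB8). Both genotypes received retinoic acid. The lines were derived from blastocysts of heterozygous crosses, 2 lines of each genotype, and the labels do not tie a replicate number to a line.

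Passage through G1 is driven by cyclin-dependent kinases, which are inactive until a cyclin binds them. D-type cyclins join Cdk4 and Cdk6 in response to growth signals, E-type cyclins then join Cdk2, and both kinds of complex phosphorylate RB and so release E2F transcription factors, which turn on genes for DNA replication. Cdkn1b encodes p27, which binds these complexes and can hold Cdk2 inactive. Mouse ES cells are known for a short G1 phase, high cyclin E and Cdk2 activity and little p27, and G1 lengthens as neural progenitors form. Protein levels, phosphorylation and cell cycle phases were not measured here.

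Values are normalised read counts, that is reads scaled by a factor for each library, and the depth ran from 22442118 to 40711826 reads per library. Depth was 32631020 to 40711826 reads at ES and 22442118 to 27685306 in embryoid bodies, without overlap, and depth or batch and stage cannot be told apart where ES cells are compared with a later stage. Members had between 179 and 38567 reads in a library. The gene count of Taf4a did not separate the labels by a loss. It was 1591 to 1959.6 in the 8 WT libraries and 1973 to 2400.0 in the 8 KO libraries, and a count over the whole gene cannot resolve the deleted exons. Some libraries stood apart on whole chromosomes. The median gene of chromosome 8 lay 0.40 to 0.41 (log2) above its mean over libraries in replicate 1 of WT EB4, EB5 and EB8, and between -0.16 and 0.03 in the other libraries. Chromosome 11 was higher in replicate 1 of every KO group (0.18 to 0.28), and chromosome X in WT ES replicate 2 (0.47) and in replicate 2 of every KO group (0.35 to 0.54). The WT ES libraries therefore did not show the pattern of the WT embryoid body libraries with the same numbers. None of the 9 genes lies on chromosome 8, 11 or X, and on their 6 chromosomes this level stayed between -0.25 and 0.15, with the lowest value on chromosome 6 in KO ES replicate 1.

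On build NCBI37 (mm9) with GENCODE release M1, Ccnd1 (ENSMUSG00000070348) lies at chr7:152115836-152125774 on the minus strand and Ccne1 (ENSMUSG00000002068) at chr7:38883003-38892553 on the minus strand. Ccnd2 (ENSMUSG00000000184) lies at chr6:127075797-127101066 on the minus strand and Cdkn1b (ENSMUSG00000003031) at chr6:134870419-134875531 on the plus strand. Cdk4 (ENSMUSG00000006728) occupies chr10:126500590-126504976 on the plus strand and Cdk2 (ENSMUSG00000025358) chr10:128134995-128142107 on the minus strand. Ccnd3 (ENSMUSG00000034165) is at chr17:47642000-47736632, Ccne2 (ENSMUSG00000028212) at chr4:11118498-11131926 and Cdk6 (ENSMUSG00000040274) at chr5:3343893-3523218, all on the plus strand. All are protein-coding genes, and 6 of them overlap a gene annotated on the opposite strand: Ccnd1 with Oraov1, Ccnd2 with 9330179D12Rik, Ccnd3 with Bysl, Ccne2 with Ints8, Cdk4 with Tspan31 and Cdk6 with Gm17590. The library kit does not mark strand, so reads from these overlaps cannot be assigned with certainty.

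TFIID is recruited at core promoters, so the promoters of 3 members with different courses are shown: Ccne1, which fell from ES to EB8 in both genotypes, Cdkn1b, which rose in WT, and Cdk4, the most abundant member per kilobase in 12 of the 16 libraries. They are RefSeq sequences of build GRCm38.p6, a later build than the one the counts were made on, and run 5′ to 3′ from 250 bases before the annotated start to 50 bases after it. Capitals mark the motifs found on either strand (a CCAAT box, a GC box, an E-box, a TATA box or an E2F site).
Ccne1, chr7:38107441-38107740, minus strand: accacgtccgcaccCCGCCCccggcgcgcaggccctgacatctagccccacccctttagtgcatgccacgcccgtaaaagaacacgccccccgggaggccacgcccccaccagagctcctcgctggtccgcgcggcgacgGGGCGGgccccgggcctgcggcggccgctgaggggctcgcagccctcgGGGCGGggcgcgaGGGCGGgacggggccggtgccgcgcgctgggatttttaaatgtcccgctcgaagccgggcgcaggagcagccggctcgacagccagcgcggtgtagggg
Cdkn1b, chr6:134920151-134920450, plus strand: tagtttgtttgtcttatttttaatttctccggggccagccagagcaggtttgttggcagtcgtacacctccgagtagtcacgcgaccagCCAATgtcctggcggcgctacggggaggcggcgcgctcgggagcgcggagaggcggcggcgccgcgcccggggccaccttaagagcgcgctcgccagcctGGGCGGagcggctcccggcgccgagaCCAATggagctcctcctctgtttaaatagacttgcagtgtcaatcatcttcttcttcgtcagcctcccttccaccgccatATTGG
Cdk4, chr10:127063285-127063584, plus strand: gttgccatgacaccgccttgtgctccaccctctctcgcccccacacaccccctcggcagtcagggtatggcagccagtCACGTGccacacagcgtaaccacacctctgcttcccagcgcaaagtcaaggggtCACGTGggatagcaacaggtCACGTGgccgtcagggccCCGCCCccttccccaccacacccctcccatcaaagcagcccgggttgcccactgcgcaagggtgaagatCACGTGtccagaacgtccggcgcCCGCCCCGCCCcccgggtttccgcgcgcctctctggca
The Ccne1 window held 4 GC boxes (GGGCGG) and none of the other motifs, the Cdkn1b window 3 CCAAT boxes and 1 GC box, and the Cdk4 window 4 E-boxes (CACGTG) and 3 GC boxes, of which the last 2 overlap. Windows were at hand for 6 of the 9 members (Ccnd3, with 2 start sites, Ccne1, Cdk2, Cdk4, Cdk6 and Cdkn1b). Of these, the Cdk6 window alone held TATAAA, at position -103 from the start, and the Cdk2 window alone held 1 of the 4 E2F spellings searched (TTTGGCGC, TTTCCCGC, TTTGGCGG and TTTCGCGC), at position -140. Over all 32544 mouse windows of the same length, TATAAA was present in 13.6%, CCAAT in 37.4%, GGGCGG in 35.9%, CACGTG in 7.17% and an E2F spelling in 2.38%. A match is a run of letters and not a measured site.

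Of the D-type cyclins, Ccnd1 and Ccnd2 differed most between the genotypes at EB8. Ccnd2 was 15.8-fold and Ccnd1 7.04-fold lower in KO than in WT embryoid bodies at that stage, while Ccnd3 was 1.92-fold higher. Ccnd2 also had the widest course of the 9 genes, with an 88.4-fold span between its highest and lowest group mean.

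Ccnd2 encodes the D-type cyclin that is prominent in cycling neural progenitors. In the WT libraries it had 703 and 281 normalised read counts at ES, 231 and 580.1 at EB4, 4683 and 10086 at EB5 and 40499.8 and 31206 at EB8. In the KO libraries it had 1426 and 2102 at ES, 480.1 and 763 at EB4, 8445 and 3005 at EB5 and 1863 and 2700.4 at EB8. The WT libraries thus climbed from EB4 through EB5 to EB8, and the KO libraries climbed from EB4 to EB5 and lay lower again at EB8, with both KO EB8 values below every WT and KO value of EB5. The WT EB8 libraries stood above all others, and at the low end KO EB4, WT ES and WT EB4 overlapped in the order of their means.

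Tests used limma on log2(normalised count + 1) with Benjamini-Hochberg adjustment over the 16124 genes and a threshold of 0.05 for the adjusted p. Ccnd2 rose between EB4 and EB5 in WT by 4.23 on the log2 scale (SE 0.59, adjusted p = 0.00134) and in KO by 3.05 (SE 0.59, adjusted p = 0.0169). The WT rise was 3.56 without WT EB4 replicate 1 and 4.89 without WT EB4 replicate 2. The KO rise was 2.31 without KO EB5 replicate 1 and 3.8 without KO EB5 replicate 2. It did not pass the threshold without KO EB4 replicate 1 (adjusted p = 0.116), KO EB4 replicate 2 (0.057) or KO EB5 replicate 1 (0.157). The difference between these rises, KO minus WT, was -1.17 (95% interval -2.97 to 0.63, adjusted p = 0.9999 in limma). At this size of experiment a genotype difference over the first day of treatment was not detectable. The groups hold no untreated EB5, so retinoic acid and the added day of culture cannot be told apart.

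Between EB5 and EB8, Ccnd2 rose in WT by a further 2.37 on the log2 scale (SE 0.59, adjusted p = 0.0234 in limma) and in KO the value was -1.17 (95% interval -2.44 to 0.11, adjusted p = 0.45). The WT rise lost its call without WT EB5 replicate 1 (adjusted p = 0.208), WT EB8 replicate 1 (0.12) or WT EB8 replicate 2 (0.0869). The difference between the genotypes over this step was -3.54 (95% interval -5.34 to -1.73) with an adjusted p of 0.0805 in limma. At EB8 itself Ccnd2 was lower in KO (log2 change -3.99, SE 0.59, adjusted p = 0.000665 in limma), and without any 1 of the EB8 libraries the adjusted p stayed between 0.00404 and 0.00864.

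Ccnd1 encodes cyclin D1, the D-type cyclin best known as a target of growth factor signals. Its normalised read counts in WT were 8592 and 2940.4 at ES, 3625 and 2388 at EB4, 1355 and 1036 at EB5 and 7111 and 5281 at EB8. In KO they were 7583 and 5834 at ES, 3606 and 3135 at EB4, 1413 and 1047 at EB5 and 561 and 1346 at EB8. The genotypes ran down together until EB5, where their values interleaved, and at EB8 the WT libraries were back within the range of the ES libraries while the KO libraries stayed near or under the EB5 range. The WT ES libraries differed from each other more than the WT libraries of any other stage did, so that Ccnd1 in WT ES overlapped KO ES, WT EB8 and both EB4 groups.

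Ccnd1 rose from EB5 to EB8 in WT by 2.37 (log2, SE 0.47, adjusted p = 0.00746 in limma), a call lost without WT EB8 replicate 1 (adjusted p = 0.0577). In KO the same step was -0.48 (95% interval -1.50 to 0.53, adjusted p = 0.75). The difference between genotypes over the step was -2.85 (95% interval -4.29 to -1.42, adjusted p = 0.079 in limma). At EB8 Ccnd1 differed between genotypes by -2.82 (log2, SE 0.47, adjusted p = 0.00134 in limma), by -2.19 without KO EB8 replicate 1 (adjusted p = 0.0165) and by -3.45 without KO EB8 replicate 2.

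**Figure D1:**
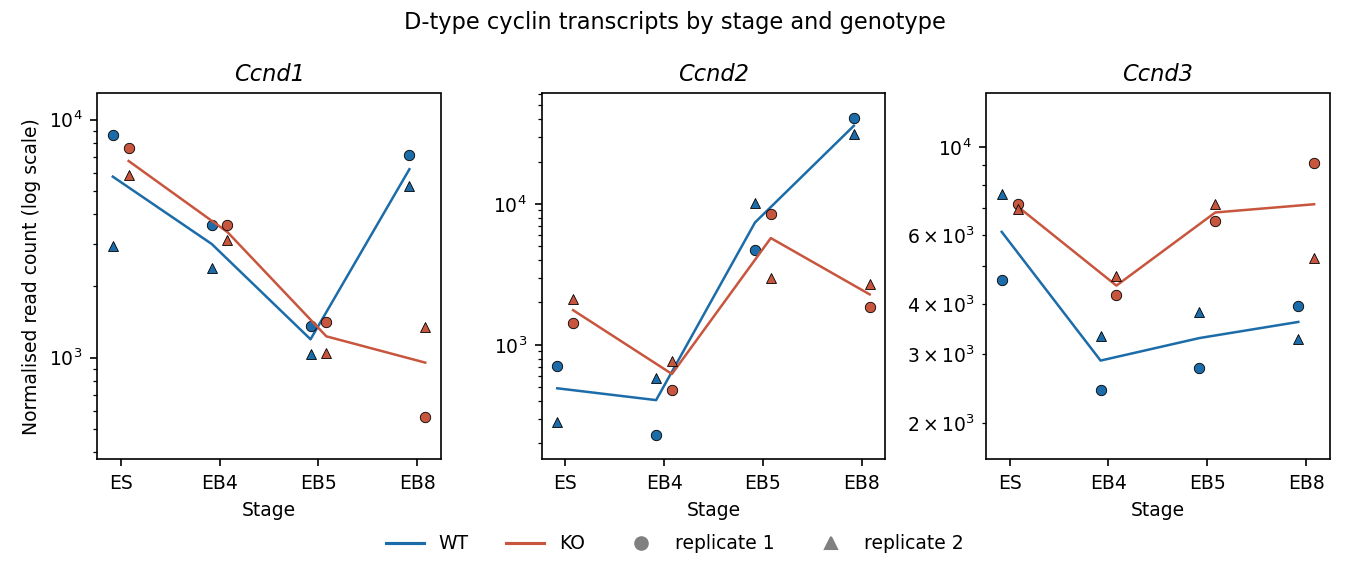
Normalised read counts (log axis) of the 3 D-type cyclin genes by stage, 1 point per library, with lines through the means of the 2 libraries of each group. Ccnd2 reached 40499.8 and 31206 in WT EB8 against 1863 and 2700.4 in KO EB8, Ccnd1 of WT turned up after EB5, and Ccnd3 of KO lay above WT in the embryoid bodies.

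Ccnd3, the D-type cyclin with the narrowest course here (a 2.49-fold span of group means), was ordered the other way. Its normalised read counts in WT were 4608 and 7598 at ES, 2433 and 3334 at EB4, 2759.9 and 3816 at EB5 and 3962 and 3261 at EB8. In KO they were 7187 and 6973 at ES, 4219.7 and 4706 at EB4, 6508 and 7159 at EB5 and 9110.5 and 5227 at EB8. At each embryoid body stage both KO libraries lay above both WT libraries, and at ES the groups overlapped. The log2 change, KO against WT, was 0.65 at EB4 (adjusted p = 0.2), 1.07 at EB5 (adjusted p = 0.0547) and 0.94 at EB8 (SE 0.29, adjusted p = 0.0322 in limma). The EB8 call was lost without KO EB8 replicate 1 (log2 change 0.54, adjusted p = 0.266), WT EB8 replicate 1 (adjusted p = 0.0656) or WT EB8 replicate 2 (0.167), and with no filter on low values (0.0509). In WT, Ccnd3 fell from ES to EB4 by 1.05 on the log2 scale (adjusted p = 0.0262 in limma), a call lost without WT EB4 replicate 1 (adjusted p = 0.146) or WT ES replicate 2 (0.166).

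Levels of different genes can be compared only per length, so normalised counts were divided by the union of exons in kilobases (3.835 for Ccnd1, 5.701 for Ccnd2, 2.255 for Ccnd3). On that scale the D-type pool was made up differently at EB8 in the 2 genotypes. Ccnd2 took 66.3% and 66.0% of the pool in the WT EB8 libraries, and 7.24% and 15.1% in the KO EB8 libraries. Ccnd3 took 16.4% and 17.4% in WT EB8 against 89.5% and 73.8% in KO EB8. The shares of the genotypes did not overlap for either gene. Ccnd1 made up 17.3% and 16.6% in WT EB8 against 3.24% and 11.2% in KO EB8. The whole pool was 10715 and 8297 normalised counts per kilobase in WT EB8 against 4513 and 3143 in KO EB8. At ES the Ccnd2 share was 2.80% and 1.18% in WT against 4.62% and 7.40% in KO, and at EB5 it was 34.2% and 47.4% in WT against 31.3% and 13.3% in KO. These shares are given as descriptions and were not tested.

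**Figure D2:**
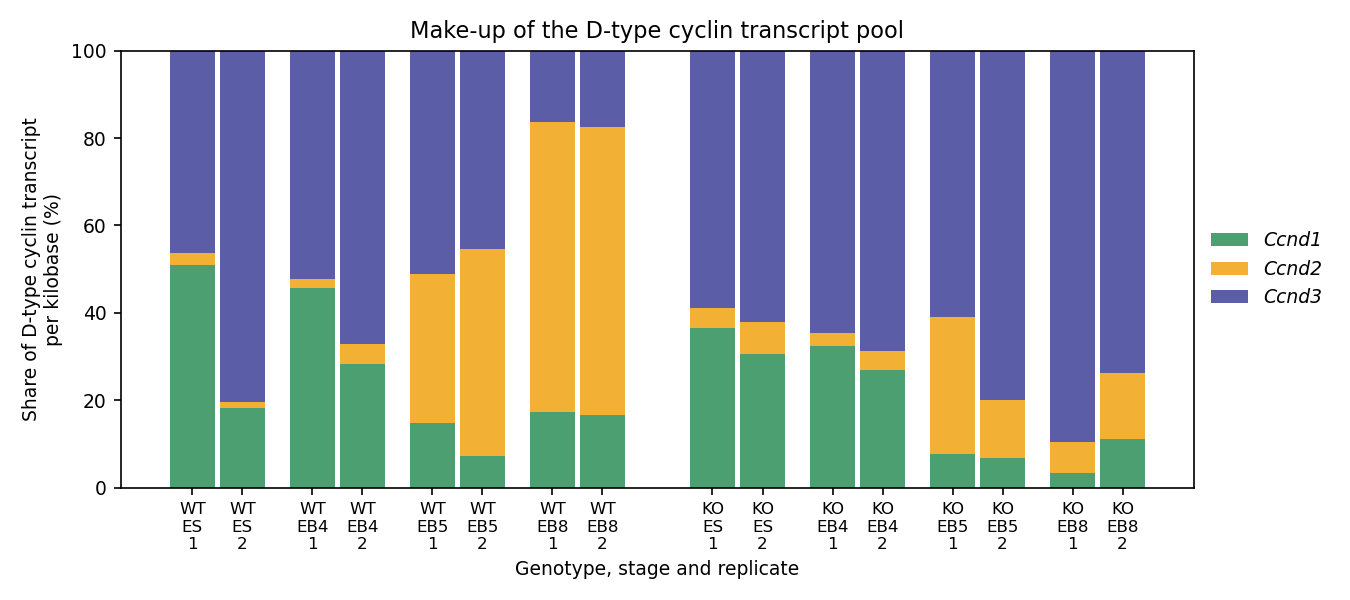
Share (%) of each D-type cyclin gene in the summed D-type transcript per kilobase, 1 stacked bar per library, ordered by genotype, stage and replicate. Ccnd2 fills 66.3% and 66.0% of the WT EB8 bars, and Ccnd3 fills 89.5% and 73.8% of the KO EB8 bars.

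Of the E-type cyclins, Ccne1 fell in both genotypes from ES to EB8, 5.80-fold in WT and 5.84-fold in KO. Ccne2 passed no test in the main limma fit (without a replicate block). Ccne1, which encodes the partner that activates Cdk2 at the end of G1, had 11170.5 and 5914 normalised read counts in WT at ES, 3453 and 3235 at EB4, 1652 and 2335 at EB5 and 1598 and 1226 at EB8. In KO it had 10169 and 9100.5 at ES, 4059.7 and 4091 at EB4, 2272 and 1783 at EB5 and 1901 and 1424 at EB8. Each genotype went down from ES to EB4 and from EB4 to EB5 without overlap, and the EB5 libraries overlapped those of EB8 in KO but lay above them in WT. Between genotypes the values overlapped at ES, EB5 and EB8. From ES to EB8 Ccne1 fell by 2.54 on the log2 scale in WT (SE 0.28, adjusted p = 2.36e-05 in limma) and by 2.55 in KO (SE 0.28, adjusted p = 6.43e-05). The difference between these falls was -0.01 with a 95% interval of -0.86 to 0.84, and a difference within that interval cannot be told from none here.

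Ccne2, the second E-type cyclin, varied least among the cyclins (a 1.94-fold span of group means). It had 1164 and 678 normalised read counts in WT ES, 464 and 640.2 in EB4, 518 and 682 in EB5 and 1035 and 858 in EB8. In KO it had 1106 and 773 at ES, 534 and 620.2 at EB4, 544 and 429.6 at EB5 and 389 and 689 at EB8. Every group overlapped its neighbours in the order of means. At EB8 both KO values lay below both WT values, with a log2 change of -0.86 (95% interval -1.58 to -0.14, adjusted p = 0.0815 in limma). Per kilobase, Ccne1 made up 92.6% and 92.0% of the E-type pool in WT ES against 92.4% and 93.9% in KO ES. At EB8 that share was 67.0% and 65.2% in WT against 86.5% and 73.1% in KO.

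Among the kinases, Cdk2 and Cdk4 were lower in KO at EB8, by 1.51-fold and 1.59-fold. Cdk6 passed no test in the main limma fit (without a replicate block). Cdk2, the partner of the E-type cyclins, had 2562 and 2591 normalised read counts in WT ES, 1986 and 1673 in EB4, 1414 and 1659 in EB5 and 1995 and 1859 in EB8. In KO it had 3266 and 3932 at ES, 1848 and 2349 at EB4, 1402 and 1612 at EB5 and 1219.7 and 1341 at EB8. KO ES stood above every other group and KO EB8 below every other group, and the genotypes overlapped at EB4 and EB5. From ES to EB8 Cdk2 fell in KO (log2 change -1.49, SE 0.17, adjusted p = 9.88e-05 in limma), against -0.42 (SE 0.17, adjusted p = 0.0617) in WT. At EB8 the log2 change, KO against WT, was -0.59 (SE 0.17, adjusted p = 0.0267 in limma), and the call was lost when any 1 of the 4 EB8 libraries was left out (adjusted p from 0.0636 to 0.138), with upper-quartile rescaling (0.0776) and with quantile normalisation (0.0511).

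Cdk4, which pairs with the D-type cyclins, was the most even member (a 1.61-fold span of group means). It had 13852 and 11581 normalised read counts in WT ES, 12556 and 11226 in EB4, 11448 and 14433 in EB5 and 15005 and 15593 in EB8. In KO it had 15523 and 14726 at ES, 11876 and 11183 at EB4, 10211 and 8783 at EB5 and 9524 and 9741 at EB8. KO lay above WT at ES and below it at EB5 and EB8, without overlap, and the groups overlapped at EB4. The log2 change, KO against WT, was -0.44 at EB5 (adjusted p = 0.114) and -0.67 at EB8 (SE 0.15, adjusted p = 0.00721 in limma), a call that narrowly missed without WT EB8 replicate 2 (adjusted p = 0.051). Within KO, Cdk4 changed from ES to EB8 by -0.65 (log2, adjusted p = 0.00492 in limma), and by -0.16 (adjusted p = 0.373) after quantile normalisation.

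Cdk6, the second partner of the D-type cyclins, had 777 and 238 normalised read counts in WT ES, 1120.1 and 728 in EB4, 1066 and 794 in EB5 and 677 and 392 in EB8. In KO it had 718 and 347 at ES, 515 and 228 at EB4, 426 and 246 at EB5 and 227 and 274 at EB8. At the embryoid body stages both KO values lay below both WT values, and in every group but KO EB8 replicate 1 was above replicate 2. That spread within groups was wide, with an SE of 0.57 on the log2 scale. The log2 change, KO against WT, was -1.39 at EB4 (95% interval -2.63 to -0.16, adjusted p = 0.167), -1.50 at EB5 (95% interval -2.74 to -0.27, adjusted p = 0.155) and -1.04 at EB8 (95% interval -2.28 to 0.19, adjusted p = 0.21), all in limma. Per kilobase, Cdk4 exceeded Cdk6 in every library, by 12.3-fold in WT EB5 replicate 1 to 56.3-fold in KO EB4 replicate 2.

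Cdkn1b rose from ES to EB4 before retinoic acid was given, and its transcript was lower in KO at EB4 and EB8. It had 1034 and 679 normalised read counts in WT ES, 3654 and 3783 in EB4, 3052 and 2447 in EB5 and 2094 and 3246 in EB8. In KO it had 1033 and 716 at ES, 1879.7 and 1485 at EB4, 1786 and 1957 at EB5 and 1603 and 1153 at EB8. The ES libraries of both genotypes were the lowest and overlapped, and at each embryoid body stage both KO values lay below both WT values. The rise from ES to EB4 was 2.15 on the log2 scale in WT (SE 0.28, adjusted p = 0.00106 in limma) and the value was 0.96 in KO (95% interval 0.36 to 1.56, adjusted p = 0.0762). The difference between these, KO minus WT, was -1.19 (95% interval -2.04 to -0.34, adjusted p = 0.565 in limma). It therefore did not pass the threshold across all genes.

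The log2 change of Cdkn1b, KO against WT, was -1.15 at EB4 (SE 0.28, adjusted p = 0.0332 in limma), -0.55 at EB5 (95% interval -1.15 to 0.05, adjusted p = 0.285) and -0.94 at EB8 (SE 0.28, adjusted p = 0.028). The EB4 call was lost when any 1 of the 4 EB4 libraries was left out (adjusted p from 0.0517 to 0.266) and with no filter on low values (0.0534). The EB8 call was lost without KO EB8 replicate 2 (adjusted p = 0.182) or WT EB8 replicate 2 (0.219). A replicate block within genotype compares the genotypes at the fitted level of replicate 1, which is not the comparison of group means above. In that limma fit the log2 change was -1.03 at EB4 (adjusted p = 0.0508) and -0.82 at EB8 (0.0606), and neither passed. Per kilobase, the D-type pool exceeded Cdkn1b by 19.4-fold and 28.0-fold in the WT ES libraries and by 2.57-fold and 2.65-fold in the WT EB4 libraries. In KO EB4 that ratio was 7.01 and 9.31, above WT. At EB8 it was 23.3 and 11.6 in WT and 12.8 and 12.4 in KO, and the groups overlapped. These ratios were not tested.

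**Figure D3:**
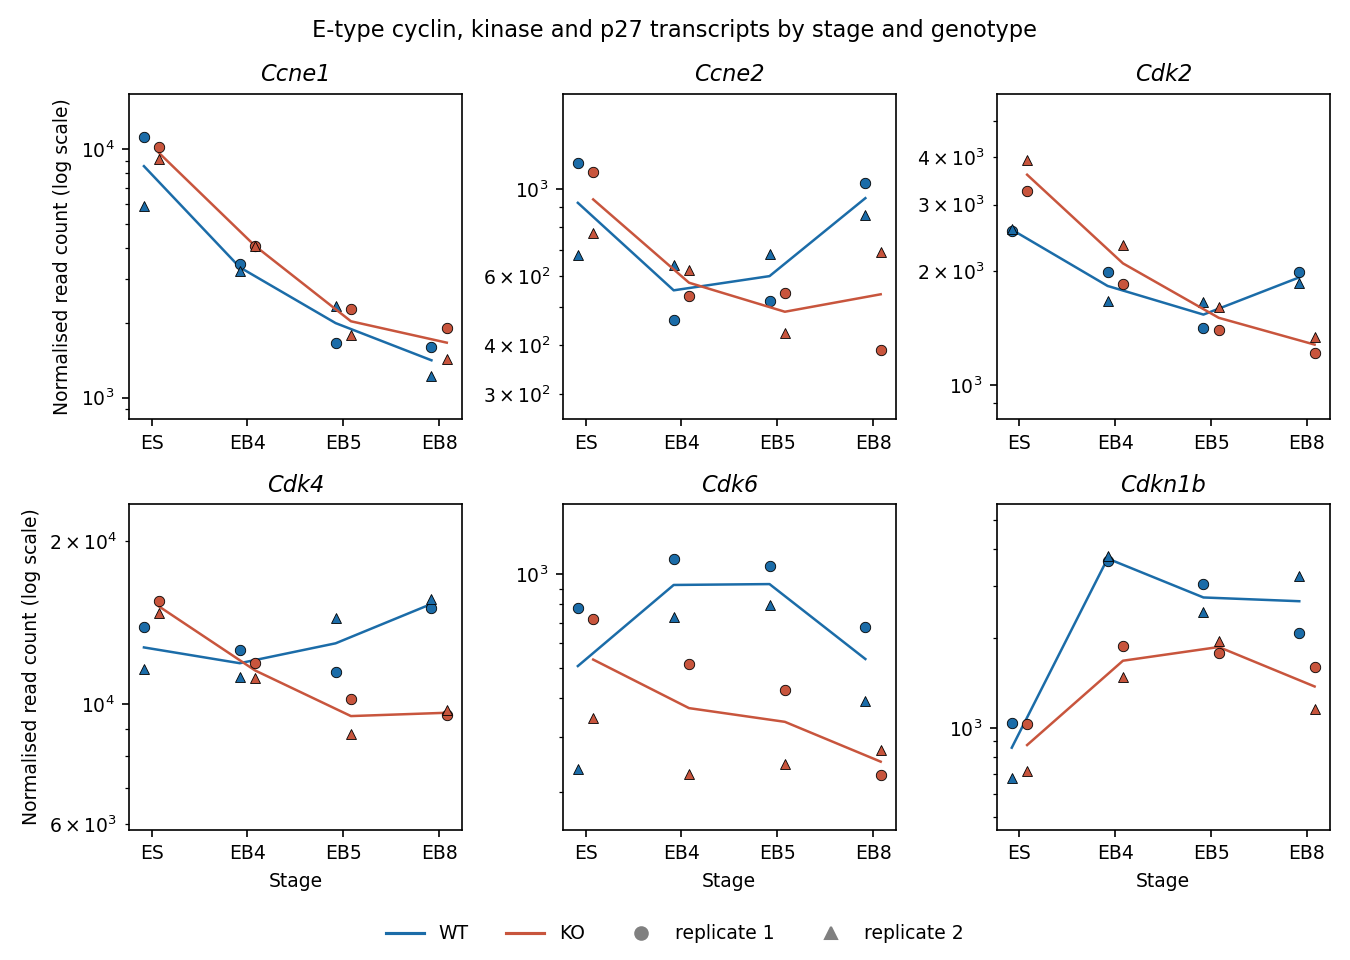
Normalised read counts (log axis) of the E-type cyclin, kinase and p27 genes by stage, 1 point per library, with lines through the means of the 2 libraries of each group. Ccne1 went down with stage in both genotypes, Cdk2 and Cdk4 of KO ended below WT at EB8, and Cdkn1b of WT was at 3654 and 3783 at EB4 against 1879.7 and 1485 in KO.

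By stage, 0 of the 9 genes passed the test between genotypes at ES, where 0% of all tested genes did in limma (1846 genes, 2 members among them, had an unadjusted p under 0.05, edgeR called 0 genes, and DESeq2 476 genes with 1 member). The member with the widest difference there was Ccnd2, higher in KO by 1.96 (log2, 95% interval 0.68 to 3.23, adjusted p = 0.207 in limma). ES cells were grown on feeders, and the summed normalised counts of 8 fibroblast markers at ES were 1055 and 2670.1 (WT) against 213 and 500.3 (KO), with Lum at 0 in 1 KO library, and 0 of the 7 markers tested passed. These sums were also lower in KO at EB4 (467 and 496 against 893 and 1347 in WT) and EB5 (1045 and 990 against 2246 and 1555). At EB8 they overlapped (907 and 3154 in KO, 2117 and 2822 in WT), so the gap was not particular to ES. The part of feeder RNA in the ES values was not tested. At EB4, 1 of 9 genes passed (Cdkn1b, lower in KO), against 6.12% of all tested genes. At EB5, 0 of 9 passed, against 4.34%. At that stage 3 members had an unadjusted p under 0.05 in limma, against 3342 of the 16124 genes. On the recovered reads DESeq2 called 2 members and 1719 of all tested genes, and edgeR 0 members and 603 genes.

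At EB8, 6 of 9 genes passed, against 22.9% of all tested genes. Of them 5 were lower in KO (Ccnd1, Ccnd2, Cdk2, Cdk4 and Cdkn1b), against 12.5% of all genes, and 1 was higher (Ccnd3), against 10.4%. The median log2 change of the 9 genes was -0.86, and that of all tested genes -0.03. Without WT EB8 replicate 2 only 2 members passed, and without any other EB8 library 4 or 5 did. A fit of only the 2 groups compared, which has fewer libraries, ended the calls of Ccnd3 (adjusted p = 0.0673), Cdk2 (0.0578) and Cdkn1b (0.0636). The calls for Ccnd1 and Ccnd2 passed under every alternative computed.

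**Figure D4:**
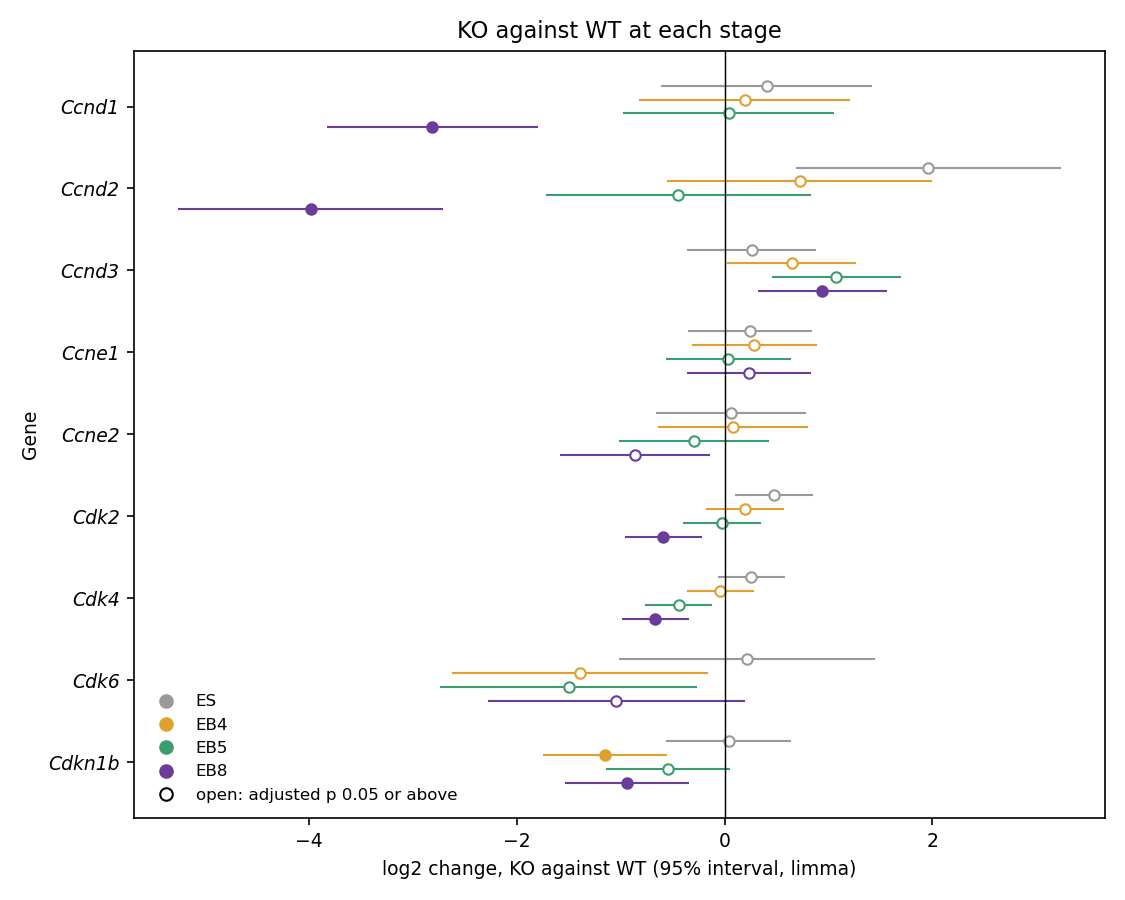
Log2 change, KO against WT, of the 9 genes at each stage from limma, with 95% intervals as bars, filled points for an adjusted p under 0.05 and open points for the rest. The EB8 points of Ccnd1 (-2.82) and Ccnd2 (-3.99) lie far from the others, and Ccnd3 (0.94) is the filled point on the side of higher values in KO.

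Cell type markers moved with the same comparison. At EB8, 5 of 6 pluripotency markers were higher in KO, and the sum over all 6 was 1324 and 1519 normalised counts in the WT libraries against 23840.2 and 26764 in the KO libraries. Of the 5 neural progenitor markers tested, 4 were lower in KO, with WT sums of 27756 and 25395 against KO sums of 4875 and 4798. Of the 5 neuron markers tested, 5 were lower in KO, with WT sums of 16532 and 21506 against KO sums of 1789 and 2288. The libraries labelled neural precursor cells thus held these markers at unequal levels. None of the progenitor or neuron markers tested was at 0 in a library of EB8, but Fabp7 was close to it in KO. It had 3.17 and 1.07 normalised counts in the KO EB8 libraries against 354 and 281 in those of WT. In such bulk libraries, fewer cells of a type and less RNA per cell cannot be told apart, and the part of cell make-up in the changes of the cyclins was not tested. Of the endoderm markers 2 of 4 were lower in KO (Foxa2 and Sox17), of the mesoderm markers 1 of 5 was higher (Eomes) and of the fibroblast markers 0 of 7 passed. Of all tested genes 12.5% were lower and 10.4% higher in KO at EB8.

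The course within each genotype gave further calls. From ES to EB4 in WT 3 of 9 genes passed, Cdkn1b up and Ccne1 and Ccnd3 down, against 16.5% of all genes. In KO 2 passed over that step, Ccne1 and Cdk2, both down, against 3.5%, and those calls were lost when any 1 of the 4 KO libraries of that step was left out (adjusted p from 0.065 to 0.228). The WT call of Ccne1 was lost without WT EB4 replicate 2 (adjusted p = 0.0542) or WT ES replicate 1 (0.056). A fit of only the compared groups ended all 5 of these calls, with the adjusted p of Cdkn1b at 0.0571. That fit called 0 of the 16124 tested genes in WT and 23 in KO, so the loss was not particular to the members. From EB4 to EB5 Ccnd2 alone passed, in WT against 3.73% of all genes and in KO against 2.51%. From EB5 to EB8, 2 of 9 passed in WT (Ccnd1 and Ccnd2, both up), against 10.4%, and 0 of 9 in KO, against 0.738%, with 0 at an unadjusted p under 0.05, by edgeR and by DESeq2. Over that step in KO 2065 of all tested genes had an unadjusted p under 0.05 in limma, edgeR called 83 and DESeq2 661.

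Over the whole span from ES to EB8, 3 of 9 genes passed in WT (Ccnd2 and Cdkn1b up, Ccne1 down), against 46.8% of all genes. With DESeq2, quantile normalisation and upper-quartile rescaling 5 of 9 did, against 8251, 7646 and 7729 of the 16124 genes. Ccnd2 rose by 6.32 on the log2 scale in WT (SE 0.59, adjusted p = 8.53e-06 in limma), by 6.98 without WT ES replicate 1 and by 5.66 without WT ES replicate 2. Cdkn1b rose by 1.64 (SE 0.28, adjusted p = 0.000498). In KO 4 of 9 passed (Ccnd1, Ccne1, Cdk2 and Cdk4), against 37.7% of all genes, and all 4 were lower at EB8, against 18% of all genes in that direction. Ccnd1 fell in KO (log2 change -2.93, SE 0.47, adjusted p = 0.0006 in limma), with -2.30 without KO EB8 replicate 1 and -3.56 without KO EB8 replicate 2. Its change in WT was 0.29 (95% interval -0.73 to 1.30, adjusted p = 0.641). Cdkn1b in KO was at 0.66 (95% interval 0.06 to 1.26, adjusted p = 0.0778).

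**Figure D5:**
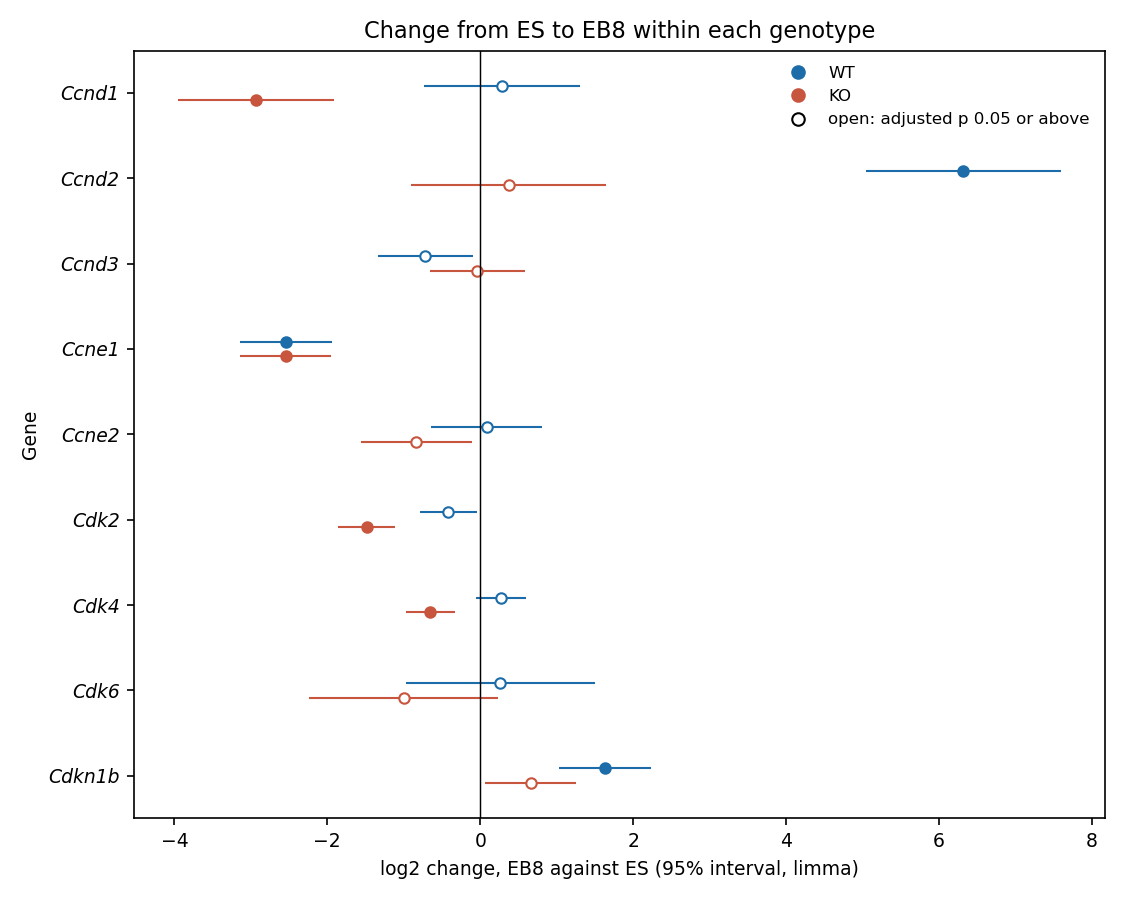
Log2 change from ES to EB8 of the 9 genes in WT and in KO from limma, with 95% intervals as bars and filled points for an adjusted p under 0.05. The genotypes coincide for Ccne1 (-2.54 and -2.55) and lie farthest apart for Ccnd2 (6.32 and 0.37).

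The difference of the ES to EB8 change between genotypes passed for 4 of 9 genes, against 7.29% of all tested genes, and for all 4 the change was lower in KO, against 3.44% in that direction. These comparisons share the EB8 and ES libraries with those above and are not separate evidence. The difference was -5.94 for Ccnd2 (log2, SE 0.83, adjusted p = 0.00313 in limma), -3.22 for Ccnd1 (SE 0.66, adjusted p = 0.0143), -1.07 for Cdk2 (SE 0.24, adjusted p = 0.0223) and -0.92 for Cdk4 (SE 0.21, adjusted p = 0.0222). For Ccnd1 the call was lost without KO ES replicate 1 (adjusted p = 0.0597), and the difference was -2.45 without WT ES replicate 2, -3.99 without WT ES replicate 1, -2.59 without KO EB8 replicate 1 and -3.85 without KO EB8 replicate 2. For Ccnd2 it was -5.29 without WT ES replicate 2 and -6.60 without WT ES replicate 1. The call for Cdk2 was lost without KO EB8 replicate 1, KO ES replicate 2, either WT EB8 library or WT ES replicate 2 (adjusted p up to 0.0887). The call for Cdk4 was lost without either KO EB8 library, either KO ES library, WT EB8 replicate 2 or WT ES replicate 2 (up to 0.0847). Step by step, the difference passed for 0 of 9 genes from ES to EB4 and from EB4 to EB5, against 0% of all genes in both (1129 and 478 genes had an unadjusted p under 0.05, edgeR called 0 in both and DESeq2 112 and 4), and for 0 of 9 from EB5 to EB8, against 0.781%. At an unadjusted p under 0.05 the steps had 1, 0 and 3 members, edgeR called 0 members in each, and DESeq2 called 0, 0 and 2. For the EB5 to EB8 step 1568 of all tested genes had an unadjusted p under 0.05 in limma, edgeR called 112 and DESeq2 488.

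The wider pathway was counted from lists of genes around these members. Of the RB and E2F family, 4 of 13 genes were lower in KO at EB8, against 12.5% of all genes, and 0 higher, against 10.4%. Their median log2 change was -0.48, and that of all genes -0.03. E2f2, an activating E2F, had 746 and 961 normalised read counts in the WT EB8 libraries against 131 and 118 in those of KO (log2 change -2.76, SE 0.32, adjusted p = 0.000156 in limma). E2f8, an atypical E2F that represses, had 1537 and 1621 in WT EB8 against 772 and 581 in KO EB8 (log2 change -1.24, adjusted p = 0.0186). Tfdp2, a dimer partner of E2Fs, had 6629 and 5462 in WT EB8 against 2839 and 3414 in KO EB8 (log2 change -0.95, adjusted p = 0.00132). These 3 genes were picked by this same change, so the lack of overlap of their EB8 values is no added evidence.

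Among the other inhibitors of cyclin-dependent kinases, the Ink4 genes and the remaining Cip/Kip genes, 0 of 6 passed between genotypes at EB8 (median log2 change 0.64), against 22.9% of all genes. Of the genes that activate the kinases or turn over G1 cyclins and p27, 1 of 15 gene identifiers passed, a share below the 22.9% of all genes. This was Skp2, which encodes the ubiquitin ligase subunit that recognises p27 for degradation, with 2995 and 2988 normalised read counts in WT EB8 against 1586 and 1649 in KO EB8 (log2 change -0.89, adjusted p = 0.025 in limma). Cdkn1b and Skp2 transcripts were thus both lower in KO at EB8. Of 14 cyclins, kinases and proliferation markers of the S, G2 and M phases, 2 were lower in KO at EB8 and 0 higher, a share near the 12.5% of all genes that were lower. Mki67, which marks cycling cells, had 17619 and 18082 normalised read counts in WT EB8 against 9175 and 9742 in KO EB8 (log2 change -0.92, adjusted p = 0.00223), and Top2a, a topoisomerase of dividing cells, changed by -0.62 (adjusted p = 0.022). From ES to EB8, 7 of these 14 fell in WT, against 22.8% of all genes, and 1 rose, while in KO 12 fell, against 18%, and 0 rose. Tested directly, the genotype difference in that change passed for 1 of the 14 (lower in KO, against 3.44% of all genes). The unequal counts of calls are therefore not a measured difference between the genotypes for the other genes of the list.

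For the 7 members whose group means spanned at least 2-fold, the genes with the most similar course over the 16 libraries were read from Pearson correlations of log2 values among genes whose mean was 50 normalised counts or more. These are descriptions, as the libraries share stages and lines. Ccne1 had the closest neighbours, Rrp9 (r = 0.984), Smndc1 (0.983) and Nop2 (0.981). Cdkn1b was nearest to Plag1 (0.961), Rere (0.940) and Nfxl1 (0.934), and Cdk2 to Dph2 (0.952), Cd2bp2 (0.944) and Polr2g (0.944). Ccnd2 was nearest to Foxd1 (0.930), Pigy (0.928) and Mnx1 (0.923). Foxd1 and Mnx1 encode transcription factors of embryonic patterning. Ccnd1 was nearest to Acin1 (0.919), Slc39a14 (0.891) and Gtf3c2 (0.887), and Ccnd3 to Clptm1 (0.919), Smap2 (0.914) and Itpka (0.90). Cdk6 was nearest to Lysmd2 (0.929), Rpl15 (0.880) and Lin28b (0.878), the last of which encodes an RNA-binding protein of early cells.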

How the data were processed

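Poly-A RNA was sequenced from 16 libraries. Per the labels and the submitters' processing notes, the tools named were CASAVA 1.7 and 1.8, TopHat2 2.0.10, HTSeq 0.5.4p3 and DESeq2 1.0.19, with mouse build mm9. The annotation release and the strand setting are not given in the sources used here. The authors deposited a signal for each gene, the read count scaled by a DESeq2 size factor. In every library 100% of the values were whole multiples, within 0.01, of a step of 0.715 to 1.28, so that whole read counts were recovered, and these give the depth.

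Groups came from the labels, with 2 libraries in each. p-values measure the spread between these libraries, which come from 2 lines of each genotype. The main test was limma 3.58.1 (R 4.3.3, eBayes with trend) on log2(normalised count + 1), with a mean for each of the 8 groups, genes with a mean of at least 10 and Benjamini-Hochberg adjustment over 16124 genes. The log2(value + 1) scale understates changes of low genes. Residual degrees of freedom were 8 and prior degrees of freedom 4.27. The study used DESeq2, and edgeR 4.0.16 and DESeq2 1.42.0 served as alternatives here, on the recovered reads. Genes that DESeq2 left without an adjusted p stayed without one.

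Named genes are the 9 members. From the other lists, those past the threshold at EB8 with the largest change are named, at most 3 from each list. For likeness, the 3 genes with the highest correlation are given. The members and lists were chosen with earlier results of these data known. Sox1 and Map2 were not found under these names, and Lum, Afp, Ttr and Mesp1 had means under 10. Other alternatives changed the pseudocount (0.1 or 5), the filter (none, or a mean of 50), the scaling (quantile or upper quartile), the samples (only the 2 groups compared, or all but 1 library), the threshold (0.01) or added a replicate block. The scripts were tested on simulated data. Gene positions are from GENCODE M1 and promoters from RefSeq. Python 3.11.15 was used for the remaining steps.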

Additional observations from a re-analysis of the deposited data

Results flagged for a closer look

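The change from ES to EB8 differed between the genotypes for 4 of the 9 genes, by the interaction term in limma with Benjamini-Hochberg adjustment. The difference, KO minus WT, was -3.22 (log2) for Ccnd1 (adjusted p = 0.0143) and -5.94 for Ccnd2 (adjusted p = 0.00313). For Cdk2 it was -1.07 (adjusted p = 0.0223) and for Cdk4 -0.92 (adjusted p = 0.0222). Part of each term lay at ES, where the log2 change, KO against WT, was 0.40 for Ccnd1, 1.96 for Ccnd2, 0.48 for Cdk2 and 0.26 for Cdk4. None of these ES differences passed. The Ccnd2 difference passed in each alternative computed, with a highest adjusted p of 0.0147, and the other 3 lost the call under a threshold of 0.01 and without 1 or more single libraries. Pluripotency, neural progenitor and neuron markers differed between genotypes at EB8 as well, and the part of cell make-up in these differences was not tested.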

How the results depend on the processing

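Of 475 values of called members under alternatives, 397 kept their direction and call, 78 lost the call and 0 reversed. Counts of members called are given below where they moved. Fitting the compared groups alone gave 3 between genotypes at EB8, 0 at EB4, 0 from ES to EB4 in WT and in KO, and 0 from EB4 to EB5 in KO. Of the 16124 genes, that fit called 3064, 0, 0, 23 and 91 in the same order. A threshold of 0.01 gave 3 between genotypes at EB8, 0 at EB4, 1 from EB5 to EB8 in WT, 1 from ES to EB4 in WT and 0 in KO, 0 from EB4 to EB5 in KO and 1 for the genotype difference in the ES to EB8 change. Of all tested genes it called 1792, 101, 650, 844, 52, 154 and 268 in the same order. DESeq2 gave 1 between genotypes at ES, 2 at EB5, 5 from ES to EB8 in WT and 3 from EB4 to EB5 in KO. Of all tested genes it called 476, 1719, 8251 and 1017 in the same order. No filter gave 0 between genotypes at EB4 and 0 from ES to EB4 in KO, where it called 609 and 310 of 27807 genes. Quantile normalisation gave 1 between genotypes at EB5, 5 from ES to EB8 in WT and 1 from ES to EB4 in KO, and upper-quartile rescaling 1 and 5 for the first 2 of these. Of all tested genes, quantile normalisation called 883, 7646 and 361 in that order, and upper-quartile rescaling 694 and 7729. Leaving out single libraries gave 2 to 5 between genotypes at EB8, 0 at EB4, 0 to 2 from EB5 to EB8 in WT, 2 to 3 from ES to EB4 in WT, 0 in KO, 0 to 1 from EB4 to EB5 in KO and 2 to 4 for the genotype difference. Smaller counts there come with fewer libraries, and the causes of the other shifts were not tested.

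The labels do not say what a replicate number stands for. Differences between replicates 1 and 2 correlated across genes, KO with WT, by 0.335 at ES, -0.06 at EB4, -0.21 at EB5 and -0.13 at EB8, so that numbers did not pair the genotypes throughout. Within KO the correlation was 0.23 to 0.42 over the 6 pairs of stages, and within WT 0.61, 0.52 and 0.57 among EB4, EB5 and EB8 but -0.18 to -0.05 between ES and these, so that within a genotype same-numbered libraries deviated together, WT ES excepted. Genes are not independent replicates. The replicate block gave 2 called members between genotypes at EB4 and 1 at EB5. With the KO numbers exchanged, chosen after seeing the data, it gave 1 at EB5 and 5 from ES to EB8 in WT. The replicate block within genotype compares the genotypes at the fitted level of replicate 1 and not by group means. In that comparison Cdkn1b did not pass at EB4 or EB8, and 2 members passed at EB5. Within a genotype this block gave 5 from ES to EB8 in WT and 2 from EB4 to EB5 in KO. Of the 16124 genes, these blocks in turn called 983, 1000 and 984 at EB5. From ES to EB8 in WT the block with exchanged numbers called 7923 and the block within genotype 8498. The step-wise genotype differences were also added after seeing the data. With 2 libraries a group, depth (179 reads or more for each member in each library) limits these values less than the spread between libraries.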
